A study of Homo sapiens with 8 samples.

Results

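HuR-bound RNA was compared between 2 lines of IMR90, a human fetal lung fibroblast strain: cells carrying a short hairpin RNA against HuR (shHuR) and cells carrying one against ADAR1 (shADAR1). The measure was the difference between the lines in log2 enrichment, where enrichment is the level of a transcript in the anti-HuR precipitate divided by its level in the input RNA of the same line. A negative difference therefore marks a transcript that was less enriched with HuR in the shHuR cells. Genes entered when at least 1 of the 4 libraries held 50 or more reads, which kept 13643 of the 57736 gene identifiers in the file, and 10371 of them had 50 or more in all 4.

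The RNA immunoprecipitation experiment has 3 lines, shControl, shADAR1 and shHuR, each with 1 precipitate and 1 input, all made from IMR90 cells with the same antibody, kit and library preparation. The difference uses only the shADAR1 and shHuR libraries, and both of these lines carry a knockdown, so neither stands for untreated cells. The shControl libraries served here only to sort genes by their enrichment in another line. Hairpin sequences, the promoter that drives them, the time after transduction and the number of clones are not given in the sources used here, and no precipitate with a control antibody was analysed. Each line stands for 1 culture, so no p-value can be given. Brackets give 95% intervals from an exact conditional test of the 4 read counts, which cover counting error only and not the spread between cultures, and a gene is called lower or higher where the difference is 2-fold or more. The lines' bulk RNA cannot tell fewer cells with a transcript from less of it in each cell. All levels are relative within a library, so a difference in the total RNA recovered with HuR would not be seen.

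HuR, the product of ELAVL1, is an RNA-binding protein found in most cell types that shuttles between nucleus and cytoplasm. It binds uridine-rich and AU-rich stretches, mostly in 3′ untranslated regions and introns, and is known for stabilising short-lived mRNAs of growth control, inflammation and stress. ADAR1, the product of ADAR, converts adenosine to inosine in double-stranded RNA and restrains the innate response to the cell's own transcripts.

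The AU-rich pentamer ATTTA is the classical unit of such elements, written here with T for U. It occurred at least once in the annotated 3′ untranslated region of 72.6% of 11899 protein-coding genes compared, and the hexamer TTTTTT in 64.8%. Occurrences were counted on the transcript strand, overlaps included, in 1 transcript per gene from GENCODE 29, and an occurrence is a match of letters, not a mapped HuR site. The following 30-base windows hold the most pentamers in the 3′ untranslated region of some of the genes whose values are described below, with each ATTTA in capitals and GRCh38 positions. The first group had lower enrichment in shHuR cells, and it includes abundant mRNAs with the largest differences, inflammatory mRNAs and the studied genes ELAVL1 and SIRT1. CXCL8 was chosen after its values were seen. Of the 6 abundant mRNAs with the largest reductions, PCBP1, SEC23A and ARL6IP1 are not shown, and their windows held 1 pentamer each. The group shown is thus not the full set.
HDAC2, chr6:113934047-113934076, minus strand: gtcaacttttttctcatATTTAaacATTTA
TMCO1, chr1:165727642-165727671, minus strand: ATTTAgagATTTAgaagaaaaATTTAgttt
CCL2, chr17:34256952-34256981, plus strand: tgttaattcttATTTAagttattgatgttt
IL1B, chr2:112829987-112830016, minus strand: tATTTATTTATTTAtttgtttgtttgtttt
CXCL8, chr4:73743108-73743137, plus strand: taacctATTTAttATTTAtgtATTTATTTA
ELAVL1, chr19:7961840-7961869, minus strand: tttATTTAtacctATTTAtgtATTTATTTA
SIRT1, chr10:67917770-67917799, plus strand: ttcttataATTTAtctttATTTAaaagctt
The second group, shown for contrast, had higher enrichment in shHuR cells.
NSD2, chr4:1980862-1980891, plus strand: tggatcggctcatagATTTAtgctccttat
MACF1, chr1:39486607-39486636, plus strand: gttttatccactttttttgctATTTATTTA
NES, chr1:156669204-156669233, minus strand: tcttaacttacgatctcttgacatatggtt
Among the lower genes shown, the whole 3′ untranslated region of HDAC2 held 29 pentamers, ELAVL1 13, CXCL8 and SIRT1 9 each, IL1B 6, TMCO1 4 and CCL2 1. Among those not shown, SEC23A held 6, and PCBP1 and ARL6IP1 3 each. Among the higher genes shown, MACF1 held 4, NSD2 2 and NES none, and DST, a higher gene without a window here, held 6, so the ranges overlapped. The regions of the genes with a window here ran from 376 bases in CCL2 to 8030 in HDAC2, and longer regions can hold more pentamers. MACF1 carries overlapping pentamers much like those of IL1B and CXCL8, so the letters alone did not separate the groups.

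The 4 libraries held 28390935 to 44578878 reads assigned to genes. All 11 fibroblast markers reached 50 reads in both inputs, where they summed to 7404 CPM (reads of a gene scaled to a common library size, here the total) in shHuR and 12624 in shADAR1. The 8 epithelial markers summed to 64.7 and 54.03 CPM in these inputs, the 7 endothelial markers found to 37.5 and 73.9, and the 8 leukocyte markers to 29.9 and 32.7. Of these marker lists, 1 gene reached 2-fold in the difference, the collagen-binding proteoglycan LUM, and it is described with the matrix genes.

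The targeted genes followed the labels in the inputs. ELAVL1 stood at 13.4 CPM in the shHuR input and 88.5 in the shADAR1 input, after TMM scaling, which sets libraries on a common scale and is used for all levels below. TMM multiplied the read totals of the shHuR and shADAR1 precipitates by 0.74 and 0.66, and those of their inputs by 1.44 and 1.41. Log2 enrichments are therefore lower in both lines under total counts. Whether a single gene stands above, near or below its input thus depends on the scaling. ADAR stood at 78.5 in the shADAR1 input and 187 in the shHuR input. ELAVL1 mRNA, itself a reported HuR target, reached 789 in the shADAR1 precipitate and 34.1 in the shHuR precipitate. Its log2 enrichment was thus 3.15 in shADAR1 and 1.34 in shHuR cells, a difference of -1.81 (-1.97 to -1.65), so ELAVL1 mRNA was still enriched in shHuR but 3.51-fold less.

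Across all genes the range of enrichment was narrower in shHuR than in shADAR1 cells. The standard deviation of log2 enrichment over the 13643 genes was 1.60 in shHuR and 1.81 in shADAR1, and over genes with 50 or more reads in every library it was 1.48 and 1.73. The order of genes was largely shared (Spearman rho 0.888 across genes, which are not independent replicates). Enrichment was lower in shHuR for 1593 genes (11.7%) and higher for 1265 (9.27%), and the median difference was -0.003. Which direction held more genes depended on the scaling, since total counts in place of TMM gave 1124 lower and 1723 higher, and DESeq2 size factors 1032 and 1895. These scalings moved the median of all genes to 0.13 and 0.17. Removing the trends of the difference over GC content and over length gave 1426 lower and 685 higher. The counting interval lay wholly on 1 side of 0 for 1496 of the lower and 1142 of the higher genes. It comes from the same reads as the call, which favours such intervals, so it is no separate support.

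**Figure D1:**
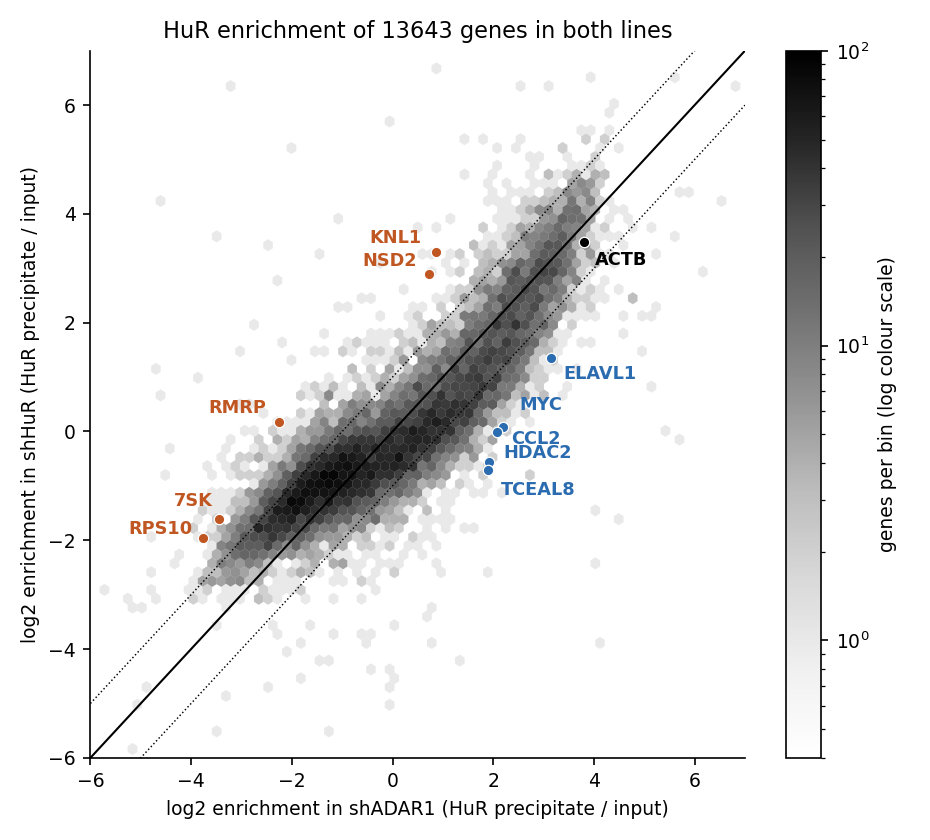
Log2 HuR enrichment of each gene in the shADAR1 line (horizontal axis) and the shHuR line (vertical axis), as hexagons shaded by the number of genes. The solid line marks equal enrichment and the dotted lines a 2-fold difference; 7 genes lie outside the axes. ELAVL1, CCL2, MYC, HDAC2 and TCEAL8 (blue) lie below the lower dotted line, RMRP, NSD2, KNL1, 7SK and RPS10 (orange) above the upper one, and ACTB (black) between them.

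Most called differences lay in the precipitates. Of the 1593 lower genes, 946 differed 2-fold or more between the precipitates and not between the inputs, 223 showed the reverse, 16 differed in both and 408 in neither alone. On the TMM scale, 1044 of these 1593 (65.5%) were enriched 2-fold or more in shADAR1 cells and 279 (17.5%) in shHuR cells. Of the same 1593, 602 went from above the input level to below it. Over the 12860 genes with 50 or more reads in a shControl library, 32.4% were enriched 2-fold in shADAR1 and 24.3% in shHuR. The call itself favours genes high in shADAR1 and low in shHuR, so these counts are partly set by it. The 1265 higher genes were mostly depleted in shADAR1: 906 stood 2-fold or more under their input in shADAR1 and 382 in shHuR, a contrast that the call likewise favours. Reads were thinner there, as 604 of the 1265 had 50 or more in every library against 1128 of the 1593 lower genes. Among 3900 genes whose mean log2 enrichment over both lines was 1 or more, 1278 (32.8%) were at least 1.5-fold lower in shHuR and 501 (12.8%) at least 1.5-fold higher. Scaling by total counts, which left 2190 genes in this class, turned that balance to 345 lower and 535 higher.

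Sorting genes by enrichment in the shControl line, whose libraries enter neither side of the difference, showed a curve with a low point in the middle. Genes with a log2 enrichment of 1 to 2 in shControl had a median difference of -0.68 (1880 genes), with median enrichments of 0.997 in shHuR and 1.66 in shADAR1. Those at 0 to 1 had a median of -0.59 (2009 genes) and those at 2 to 3 one of -0.39 (1385 genes). At 3 or more, the 506 most enriched genes had a median difference of 0.12, with enrichments of 3.49 and 3.39. By their medians, the strongest HuR-enriched transcripts were thus as enriched in shHuR as in shADAR1 cells, while the moderate ones were less enriched. This enrichment is relative to the other transcripts of each library, so it does not show whether the amount bound to HuR was kept. Under total counts and DESeq2 size factors the median of those 506 genes was 0.25 and 0.30, on the same side of 0.

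At the other end, genes depleted from the shControl precipitate were less depleted in shHuR than in shADAR1. The 1171 genes below -3 in shControl had a median difference of 0.88, with enrichments of -1.47 in shHuR and -2.35 in shADAR1. Of them 437 (37.3%) were called higher and 7 lower. Between -3 and -2 the median was 0.59 over 2035 genes. Median differences between the inputs stayed between -0.01 and 0.08 in all 8 classes, so the curve was one of the precipitates. Over all 5113 genes depleted 2-fold or more the median was 0.55, and it was 0.22 once trends over GC content and length were removed. Over the 3771 genes enriched 2-fold or more in shControl, the median was -0.48, and 94.6% of them were enriched 2-fold or more in shADAR1 cells against 70.8% in shHuR cells.

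**Figure D2:**
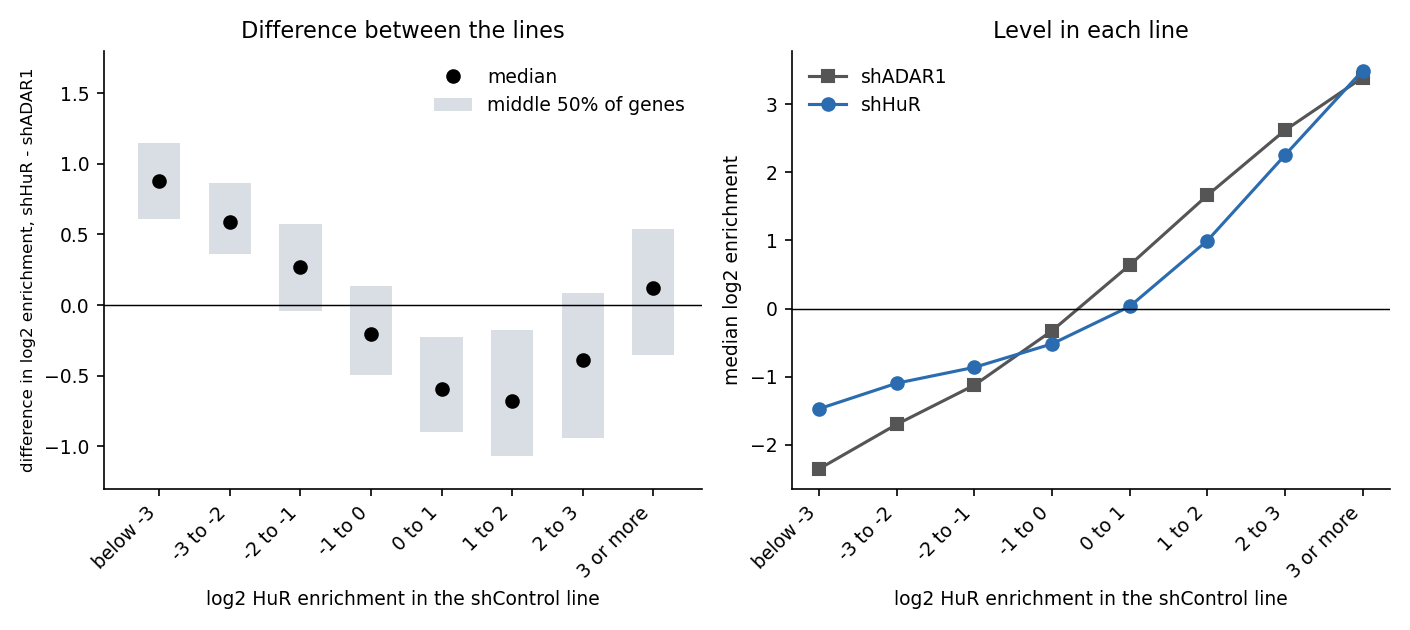
Left, the difference in log2 enrichment (shHuR minus shADAR1) of genes grouped by their log2 enrichment in the shControl line; points are medians and bars the middle 50% of genes. Right, the median log2 enrichment of the same groups in each line, where the shHuR curve is the flatter one below 0, lies under shADAR1 from -1 to 3 and meets it in the last class.

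The number of AU-rich and U-rich words in the 3′ untranslated region moved with the difference. Protein-coding genes with no ATTTA had a median difference of 0.45 (3258 genes), and the median was lower in each further class, down to -0.53 where 11 or more were present (1457 genes). For TTTTTT the relation bent back: the median was 0.49 with none (4192 genes), -0.57 with 6 to 10 (1480 genes) and -0.19 with 21 or more (1325 genes). The genes with 21 or more hexamers were the most enriched in both lines, at medians of 1.98 in shHuR and 2.37 in shADAR1.

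The same bend was present within classes of equal shControl enrichment. Among genes at 1 to 2 in shControl, the median difference was -0.47 with no TTTTTT, -0.88 with 1 to 5 and -0.39 with 21 or more. At 2 to 3 the corresponding medians were -0.15, -0.89 and -0.22. ATTTA number showed a smaller step there, from -0.16 with none to -0.51 with 6 to 20. These word counts move together with base composition and length: transcripts under 40% GC had a median difference of -0.52 (2017 genes) and those of 60% or more one of 0.57 (1901 genes), and the 1754 genes with the shortest 3′ untranslated regions (median 180 bases) had a median of 0.51 against -0.35 for the 1413 with the longest (median 5427 bases). Which of these properties the difference follows was not tested.

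**Figure D3:**
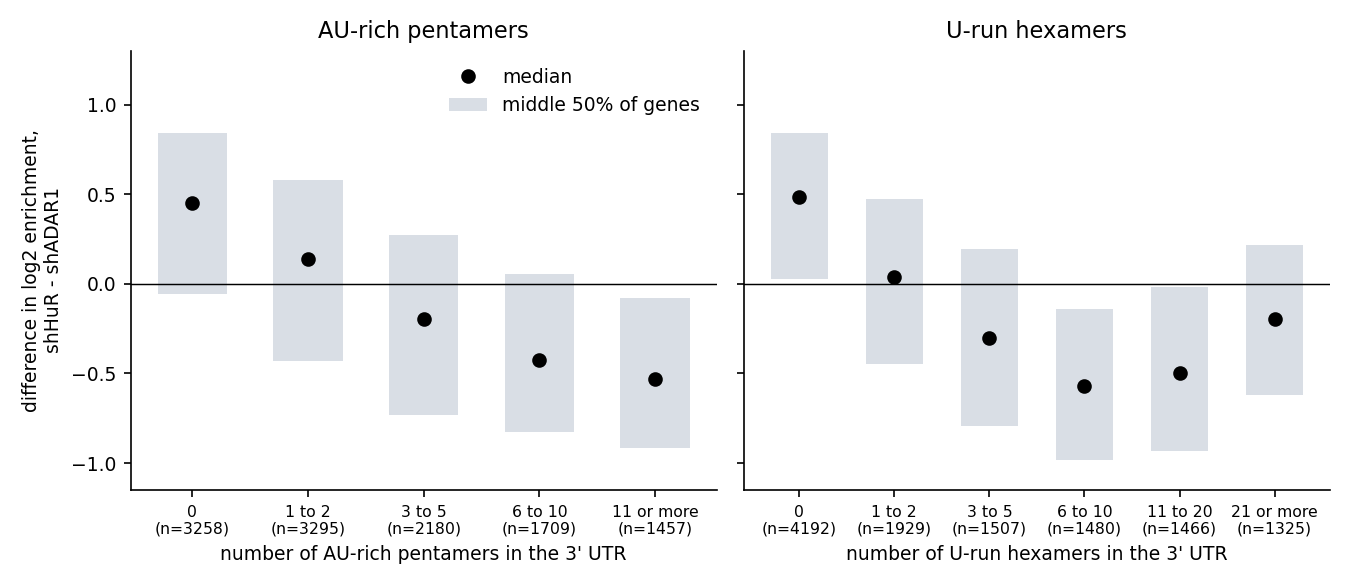
Difference in log2 enrichment (shHuR minus shADAR1) by the number of ATTTA pentamers (left, AU-rich pentamers) and TTTTTT hexamers (right, U-run hexamers) in the 3′ untranslated region; points are medians, bars the middle 50% of genes and n the number of genes. Medians are lower at each step of pentamer number and turn back up at the highest hexamer numbers.

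On the TMM scale, the largest reductions among abundant transcripts took mRNAs from clear enrichment to little or none. HDAC2, which encodes a histone deacetylase, stood at 74.9 CPM in the shADAR1 input and 74.5 in the shHuR input, and at 282 and 50.5 in the respective precipitates. Its log2 enrichment was 1.91 in shADAR1 and -0.56 in shHuR, a difference of -2.48 (-2.59 to -2.36). The inputs were level and the shADAR1 precipitate was the high library, so HDAC2 mRNA passed from enriched to depleted. SEC23A, a subunit of the COPII coat that buds vesicles from the endoplasmic reticulum, showed the same pattern, with inputs of 250 in shADAR1 and 241 in shHuR and precipitates of 830 and 191, a difference of -2.06 (-2.13 to -2.004). PCBP1, a poly(C)-binding RNA-binding protein, also had level inputs (164 and 170) and unequal precipitates (453 and 106), with a difference of -2.15 (-2.23 to -2.07). As shares of all reads, the shADAR1 enrichment of both was slighter. SEC23A made up 0.055% of the shADAR1 precipitate and 0.035% of its input, and PCBP1 0.03% and 0.023%. Other annotated genes overlap 52.2% of the PCBP1 transcript model, so its reads may be shared.

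TMCO1, a calcium-release channel protein of the endoplasmic reticulum, differed in both fractions. Its inputs were 40.5 CPM in shADAR1 and 83.1 in shHuR, its precipitates 244 and 105, and its difference -2.25 (-2.36 to -2.14). ARL6IP1, a membrane-shaping protein of the same organelle, had inputs of 54.3 and 82.8, precipitates of 249 and 93.3, and a difference of -2.03 (-2.13 to -1.92). In both genes the input was higher and the precipitate lower in shHuR. Among less abundant genes with 50 or more reads everywhere, the largest reduction was that of TCEAL8, a member of the TCEA-like family, at -2.60 (-2.74 to -2.48), followed after HDAC2 by the hyaluronan synthase HAS2 at -2.31 (-2.70 to -1.92). The remaining genes of the 12 largest reductions ran from -2.28 to -2.10: IL1B, TMCO1, the mitochondrial carrier SLC25A40, POLR2J2, the phosphatase PHLPP1, PCBP1, the glutamine synthetase GLUL, the RNA export factor NXT2 and MYC. POLR2J2 belongs to a family of near-identical copies, so its value is uncertain.

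**Figure D4:**
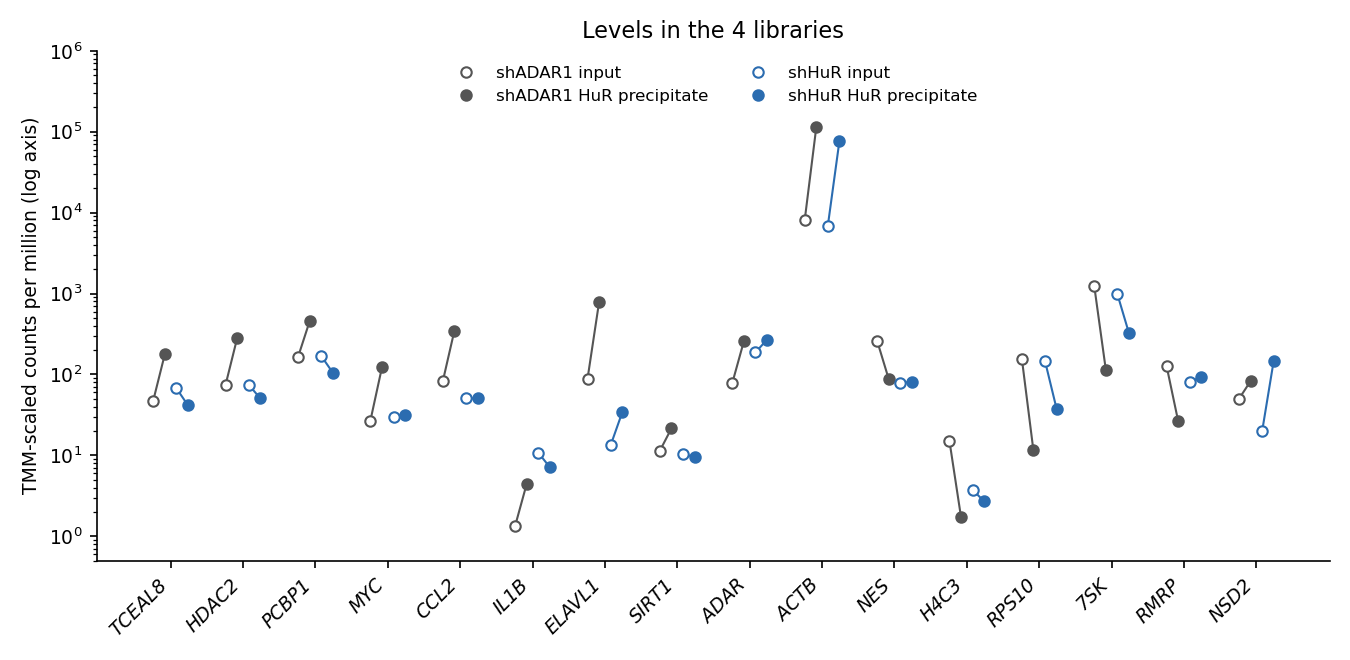
TMM-scaled CPM (log axis) of 16 genes in the 4 libraries, each a single library; open circles are inputs, filled circles HuR precipitates, grey shADAR1 and blue shHuR, and a line joins the input to the precipitate of its line. HDAC2, PCBP1 and TCEAL8 go up from input to precipitate in shADAR1 and down in shHuR, whereas ACTB goes up in both.

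Of 8 genes at the centre of the study, 5 were lower in shHuR (62.5% against 11.7% of all genes) and none higher, with a median of -1.10. Their median log2 enrichment in shControl was 1.75, and 30.4% of all genes at 1 to 2 there were lower. Under total counts and under DESeq2 size factors 4 were lower, and with GC and length trends removed 3 were. The 5 include ELAVL1 and ADAR, which the hairpins of these lines target. SIRT1, a deacetylase tied to ageing, had inputs of 11.5 CPM in shADAR1 and 10.3 in shHuR and precipitates of 21.6 and 9.62, a difference of -1.01 (-1.32 to -0.72). Its enrichment went from 0.91 to -0.10, so on the TMM scale the transcript sat near its input level in the shHuR precipitate. This call stood at the 2-fold limit and was -0.88 under total counts, -0.84 under DESeq2 size factors and -0.66 with GC and length trends removed. ADAR mRNA reached about the same level in both precipitates (258 in shADAR1, 270 in shHuR), and its difference of -1.19 (-1.26 to -1.11) lay in the inputs, where ADAR is the knockdown target of 1 line. CDKN2B, the cell cycle inhibitor p15, did likewise, with 107 in each precipitate against 22.1 in the shADAR1 input and 59.3 in the shHuR input, a difference of -1.42 (-1.56 to -1.29).

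RB1, the retinoblastoma tumour suppressor, differed mainly in the precipitates, at 190 in shADAR1 and 66.8 in shHuR over inputs of 66.2 and 52.9, a difference of -1.18 (-1.297 to -1.07), which was -0.66 with GC and length trends removed. LMNB1, the nuclear lamina protein lost in senescent cells, and CDKN1A, the inhibitor p21, missed 2-fold at -0.95 (-1.49 to -0.37) and -0.58 (-0.62 to -0.54). LMNB1 was scarce in shHuR cells, at 1.25 CPM in the input against 12.6 in shADAR1. CDKN2A, which encodes p16, was depleted alike in both precipitates (-1.72 in shADAR1, -1.59 in shHuR), with a difference of 0.14 (-0.14 to 0.43).

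Of 33 reported HuR targets, 10 were lower and 1 higher, a share of 30.3% lower against 11.7% of all genes, and the median was -0.45. CSF2, 1 of the 10, had 5 to 93 reads and an interval that includes 0. Under total counts 7 were lower (21.2% against 8.24% of all genes). The median log2 enrichment of the list in shControl was 0.55. Of all genes at 0 to 1 in shControl 18.4% were lower, and of those at 1 to 2 30.4%. MYC, the growth-promoting transcription factor, had level inputs (26.9 in shADAR1, 29.8 in shHuR) and precipitates of 123 and 31.7, a difference of -2.10 (-2.27 to -1.94). HIF1A, the oxygen-sensing transcription factor, stood at -1.67 (-1.71 to -1.63), the chromatin-associated protein PTMA at -1.57 (-1.68 to -1.46) and the growth factor VEGFA at -1.07 (-1.19 to -0.96). Several long-known targets held their enrichment relative to other transcripts. CTNNB1, the gene of beta-catenin, was at 3.28 in shADAR1 and 3.27 in shHuR, CCND1, the gene of cyclin D1, at 2.33 and 2.40, and MDM2, a ubiquitin ligase, at 3.12 and 2.90. HIF1A, PTMA, VEGFA, CTNNB1, CCND1 and MDM2 were picked from the list after their values were seen. The 1 target above 2-fold was SNAI1, a transcription factor of cell migration, at 1.06 (0.41 to 1.73) on 45 to 306 reads.

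ACTB, the cytoplasmic beta-actin gene, supplied the most reads of both precipitates, 5.71% in shHuR and 7.48% in shADAR1. Its enrichment was 3.81 in shADAR1 and 3.48 in shHuR, a difference of -0.34 (-0.34 to -0.33). Among 15 actins and actin regulators, 3 were lower (PFN1, ACTN4 and MSN) and 1 higher. These few calls are to be read against 11.7% lower and 9.27% higher among all genes. The balance depended on the setting: total counts and DESeq2 size factors each gave 2 lower and 2 higher. Removal of GC and length trends gave 5 lower (33.3% against 10.8% of all genes) and none higher. PFN1, profilin, had inputs of 651 in shADAR1 and 673 in shHuR and precipitates of 2150 and 811, a difference of -1.45 (-1.49 to -1.42). TMSB10, a small actin-sequestering protein, was far under its input in both lines and less so in shHuR, at -3.70 in shADAR1 and -2.68 in shHuR.

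Of 17 genes for proteins that bind AU-rich elements, ELAVL1 among them, 3 were lower (17.6%), none was higher and 15 lay below 0, with a median of -0.66. Their median log2 enrichment in shControl was 1.24, and all genes at 1 to 2 there had a median difference of -0.68. Leaving out ELAVL1, 2 of 16 were lower (12.5%), near the 11.7% of all genes. ZFP36L1, which promotes decay of AU-rich mRNAs, had inputs of 387 in shADAR1 and 497 in shHuR and precipitates of 1818 and 787, a difference of -1.57 (-1.61 to -1.53). NCL, nucleolin, stood at -1.07 (-1.14 to -1.005), but at -0.93 under total counts, -0.89 under DESeq2 size factors and -0.95 with GC and length trends removed. The highest members were TIAL1, a stress granule protein, at 0.42 (0.32 to 0.53) and ZFP36L2, a relative of ZFP36L1, at 0.29 (0.15 to 0.43). Of 21 genes of the microRNA and mRNA decay machinery, 2 were lower (9.52%), the deadenylase subunit CNOT2 and the exonuclease XRN1, and none was higher. Their median of -0.04 changed sign with the scaling.

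Of 32 secretory genes of senescence, 14 were lower (43.8% against 11.7% of all genes) and none higher, with a median of -0.92, but 4 of the 14 rested on few reads and had intervals that include 0. Over the 26 with 50 or more reads in every library, 9 were lower (34.6% against 10.9% of all genes at this limit). Here the inputs contributed: the median input difference was 0.68 against 0.04 over all genes, so many of these mRNAs were more abundant in shHuR cells. IL1B, an inflammatory cytokine, had inputs of 1.35 in shADAR1 and 10.8 in shHuR and precipitates of 4.47 and 7.13, a difference of -2.28 (-2.88 to -1.79). Both shHuR libraries were above their shADAR1 counterparts, and the input more so.

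CXCL8, a neutrophil chemokine, resembled IL1B, with inputs of 103 in shADAR1 and 486 in shHuR, precipitates of 114 and 210 and a difference of -1.35 (-1.43 to -1.27). CCL2, a monocyte chemokine, moved in the precipitate instead, from 345 in shADAR1 to 50.6 in shHuR over inputs of 82.1 and 50.8, a difference of -2.08 (-2.19 to -1.96). The highest members were ANGPTL4, a lipase inhibitor, at 0.80 (0.46 to 1.17) and IGFBP7, an insulin-like growth factor binding protein, at 0.72 (0.59 to 0.84).

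Immediate early genes, which are induced within minutes of a stimulus and whose mRNAs turn over quickly, had a median of -0.73, with 7 of 21 lower (33.3% against 11.7% of all genes) and none higher. Their median log2 enrichment in shControl was 0.64, and 18.4% of all genes at 0 to 1 there were lower. With GC and length trends removed, 13 of the 21 were lower (61.9% against 10.8% of all genes) and the median was -1.146. Their inputs were lower in shHuR as well, with a median input difference of -0.81. EGR2, a zinc-finger transcription factor with 15 to 168 reads, stood at -2.13 (-3.22 to -1.21). EGR3, of the same family, had 1 and 2 reads in the shHuR libraries and an interval from -8.62 to 1.70. FOSL1, a component of AP-1, and NR4A1, an orphan nuclear receptor, were above 0 at 0.26 and 0.96. The lists with many lower genes share members, so their counts are not independent. MYC is also a reported HuR target, and CSF2, CXCL8 and VEGFA are both targets and secretory genes. ELAVL1 and SIRT1 are both studied genes and targets, and ELAVL1 is also an AU-rich element binding protein.

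Several large families of housekeeping transcripts lay on the other side. Of 83 cytosolic ribosomal protein genes, 32 were higher (38.6% against 9.27% of all genes) and 1 lower, with a median of 0.92. Their median log2 enrichment in shControl was -3.62. All 1171 genes below -3 in shControl had a similar share higher (37.3%) and a median of 0.88, so the family resembled other depleted genes. RPS10, of the small subunit, had inputs of 157 CPM in shADAR1 and 147 in shHuR and precipitates of 11.5 and 37.8, so its enrichment was -3.76 and -1.96 and the difference 1.81 (1.62 to 2.01). Both lines left RPS10 far below its input, and its scaled level was higher in the shHuR precipitate. RPL7, of the large subunit, showed the same with inputs of 24.2 and 26.3, precipitates of 2.57 and 8.37 and a difference of 1.56 (1.17 to 2.01). The exception, RPS26, had 9 to 71 reads and an interval that includes 0. Ribosomal protein genes have many processed pseudogenes, so the assignment of their reads is uncertain. With trends over GC content and length removed, the median of these 83 genes was 0.54 and 12 of them were higher (14.5% against 5.17% of all genes).

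Nuclear genes of the respiratory chain, whose products carry out oxidative phosphorylation, had 17 of 79 higher (21.5% against 9.27% of all genes) and none lower, with a median of 0.75. Their median log2 enrichment in shControl was -3.14, and 37.3% of all genes below -3 there were higher. NDUFB11 and NDUFS8, both of complex I, stood at 1.60 (1.04 to 2.31) and 1.53 (1.23 to 1.85). Mitochondrial ribosomal protein genes had 18 of 74 higher (24.3%) and 3 lower, with a median of 0.62, and MRPS24 was the highest at 2.24 (1.54 to 3.23). Their median log2 enrichment in shControl was -2.72, and 17.4% of all genes at -3 to -2 there were higher. Proteasome subunits had a median of 0.58 with 5 of 36 higher (13.9%) and 3 lower (8.33%), against 9.27% and 11.7% of all genes. PSMD10, an assembly chaperone of the proteasome cap, went against its list, with inputs of 37.7 and 38.9, precipitates of 118 in shADAR1 and 29.03 in shHuR and a difference of -2.07 (-2.23 to -1.91). With the same trends removed, 5.17% of all genes were higher, against 2 of the 79 respiratory chain genes (2.53%) and 7 of the 74 mitochondrial ribosomal protein genes (9.46%), whose medians were 0.40 and 0.26. The share of higher respiratory chain genes thus went from above that of all genes to below it. Under total counts and DESeq2 size factors it was instead 35.4% and 40.5%, against 12.6% and 13.9% of all genes. The 3 lower proteasome genes, PSMD10, PSMD5 and PSMB2, differed from PSMD1, a scaffold subunit of the cap, which was depleted in both lines and stood at 1.06 (0.90 to 1.23).

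**Figure D5:**
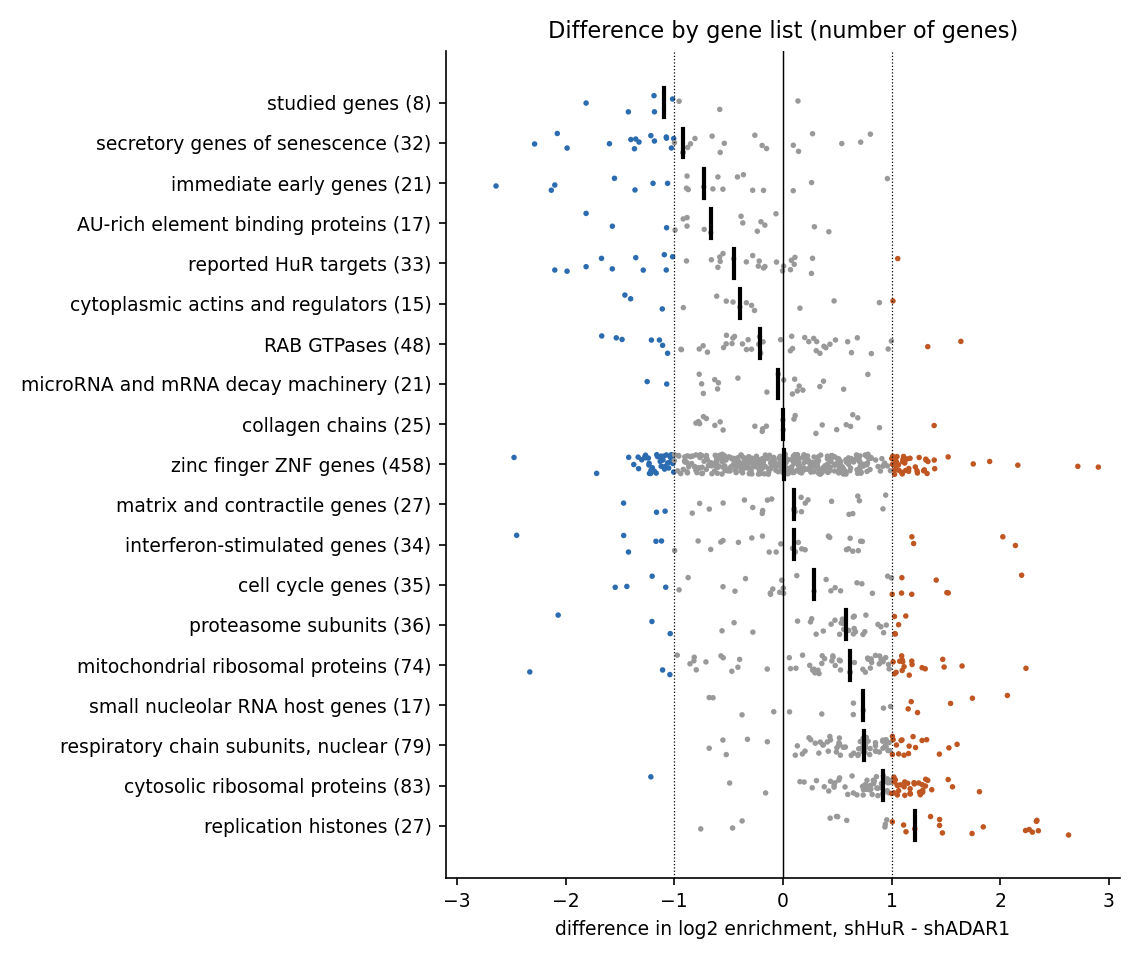
Difference in log2 enrichment (shHuR minus shADAR1) of each gene in 19 lists, with the number of genes in parentheses; blue points are 2-fold or more lower, orange points 2-fold or more higher, and black ticks are list medians. Lists are drawn from the studied genes at the top to the replication histones at the bottom, whose medians are -1.10 and 1.21.

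Replication-dependent histone genes, whose mRNAs are made in S phase and lack a poly(A) tail, had the highest median of the plotted lists at 1.21. Of the 27 genes, 17 were higher (63.0% against 9.27% of all genes) and none lower. Their inputs differed more than their precipitates: the median input difference was -1.99 and the median precipitate difference -0.57. H4C3 had inputs of 15.1 in shADAR1 and 3.74 in shHuR and precipitates of 1.73 and 2.71, a difference of 2.63 (2.04 to 3.28). H1-4, a linker histone gene, stood at 2.33 (1.805 to 2.87). The lowest were H4C8 at -0.76 (-0.98 to -0.54) and H2AC6 at -0.46 (-0.62 to -0.30). Histone genes are near-identical copies, so reads may be split among them. The median was 0.58, with 8 higher (29.6% against 5.17% of all genes), once GC and length trends were removed.

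The 35 cell cycle genes were likewise scarce in shHuR, with a median input difference of -2.54, and 8 were higher (22.9% against 9.27% of all genes) and 4 lower (11.4% against 11.7%). The lower ones included KIF20A and KIF11, motor proteins of the mitotic spindle, at -1.54 (-2.26 to -0.88) and -1.44 (-1.84 to -1.03). MYBL2, a transcription factor of proliferating cells, stood at 2.20 (0.98 to 3.35) and the kinetochore motor CENPE at 1.52 (0.93 to 2.14). Over the 15 genes with 50 or more reads in every library, 2 were higher and 2 lower, and the list median went from 0.29 to -0.03. That was 13.3% each way, against 5.82% higher and 10.9% lower among all genes at this limit. KNL1, a kinetochore scaffold outside the list, was among the 12 largest increases at 2.45 (2.14 to 2.80), with inputs of 12.6 in shADAR1 and 2.63 in shHuR and precipitates of 23.0 and 26.5.

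Of 16 abundant noncoding RNAs, 3 were lower (MALAT1, NEAT1 and CYTOR) and 3 higher (RMRP, EPB41L4A-AS1 and PVT1). That was 18.8% each way, against 11.7% lower and 9.27% higher among all genes, and it rests on few genes. With GC and length trends removed, 2 were lower (12.5%) and 1 higher (6.25%), against 10.8% and 5.17% of all genes. The nuclear long noncoding RNAs MALAT1 and NEAT1 were enriched in shADAR1 (1.47 and 1.19) and close to input in shHuR (0.21 and -0.14), with differences of -1.26 (-1.301 to -1.22) and -1.33 (-1.42 to -1.24). The long noncoding EPB41L4A-AS1 and PVT1 stood at 1.40 (0.52 to 2.57) and 1.03 (0.715 to 1.36), the former on 14 to 167 reads; CYTOR and PVT1 were named after their values were seen. RMRP, the RNA of an RNase that processes ribosomal RNA, had inputs of 127 in shADAR1 and 81.8 in shHuR and precipitates of 26.5 and 92.8, a difference of 2.44 (2.31 to 2.58). The transcription regulator 7SK stood at 1.84 (1.78 to 1.90), with precipitates of 115 and 324. Other annotated genes overlap 98.5% of RMRP and 99.1% of 7SK, and related copies may share their reads; RMRP was at 0.98 with GC and length trends removed. All 28 small structural RNA genes had a median of 1.95, with 21 higher and 1 lower, but several are copies with identical counts. Of 17 small nucleolar RNA host genes, 6 were higher (35.3% against 9.27% of all genes) and none lower, with a median of 0.74. With GC and length trends removed, 2 of the 17 were higher, and over the 8 with 50 or more reads in every library 2 were higher, with a median of 0.28.

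The very long mRNAs of the related cytoskeletal genes MACF1 and DST were among the abundant transcripts with the largest increases. Over 13244 genes the difference went the other way, falling with transcript length (Spearman rho -0.256 across genes). MACF1, a linker of microtubules and actin, had inputs of 829 in shADAR1 and 535 in shHuR and precipitates of 611 and 1097, a difference of 1.48 (1.44 to 1.51). DST, its relative dystonin, had inputs of 662 and 448, precipitates of 456 and 815 and a difference of 1.40 (1.36 to 1.44). On the TMM scale both passed from below input in shADAR1 to above it in shHuR. Total counts lower both enrichments, and in shHuR DST would then not stand above its input and MACF1 barely so. NSD2, a histone methyltransferase, had inputs of 49.98 and 19.96, precipitates of 82.9 and 148 and the largest increase of these abundant genes, 2.16 (2.03 to 2.30). NES, the intermediate filament protein nestin, had equal precipitates (88.5 and 80.9) over unequal inputs (262 and 78.9), a difference of 1.60 (1.501 to 1.71). The 12 largest increases among genes with 50 or more reads everywhere ran from 2.23 to 2.69. Beside KNL1, RMRP, H4C3 and H1-4 they were the histone genes H2BC18, H4C16, H2AC11 and H4C11, the synaptotagmin SYT17, the cadherin DCHS1, and AMIGO3 and RNU2-2P, which other annotated genes overlap by 99.7% and 100.0%. NBPF20, at 2.01, belongs to a family of near-identical copies and is uncertain.

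Interferon-stimulated genes, the innate response that ADAR1 restrains, had 5 of 34 lower (14.7%) and 4 higher (11.8%), near the 11.7% and 9.27% of all genes. Their median was 0.10, on inputs that were lower in shHuR by a median of -1.57. OAS2, an antiviral oligoadenylate synthetase, had 3 reads in the shHuR precipitate and a difference of -2.45 (-5.19 to -1.16), and IRF7, an interferon regulatory factor, one of 2.14 (1.14 to 3.35) on 16 to 149 reads. Matrix and contractile genes had 3 of 27 lower (11.1%, near the 11.7% of all genes) and none higher. CCN2, a matricellular growth factor, stood at -1.47 (-1.51 to -1.42), tropomyosin TPM1 at -1.16 (-1.20 to -1.13) and LUM at -1.08 (-1.31 to -0.86).

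The lists of this paragraph are to be read against the 11.7% lower and 9.27% higher among all genes, and the small ones rest on few calls. Collagen chains had a median of 0.00 with none lower and 1 of 25 higher (4.0%), COL7A1 of anchoring fibrils, at 1.39 (0.99 to 1.82). Cholesterol and fatty acid synthesis had 2 of 17 genes lower and 1 higher, and integrated stress response genes 1 of 15 lower and 3 higher. The stress response list held the cystine transporter SLC7A11 at -1.03 (-1.08 to -0.98) and the transcription factor DDIT3 at 2.04 (1.38 to 2.86). The 48 RAB GTPases of vesicle traffic had 7 lower (14.6%) and 2 higher (4.17%). Of 458 zinc finger ZNF genes, 42 were lower and 42 higher, or 9.17% each way, near the shares of all genes.

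Near the entry limit the spread was wide. The 158 genes whose highest library held 50 to 54 reads had a median difference of 0.07, with 5th and 95th percentiles of -2.73 and 2.62, and the 183 genes just outside, at 45 to 49 reads, a median of -0.17, with percentiles of -2.33 and 1.96. Genes with 1000 or more reads in a library, 6830 in all, had percentiles of -1.27 and 0.99.

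Several calls given above were close enough to 2-fold to depend on a setting, while their direction held. Under both other scalings MSN, LUM, NCL, XRN1 and SLC7A11 were under 2-fold as SIRT1 was, and TPM1 was so under DESeq2 size factors. With GC and length trends removed, RB1, SIRT1, KIF11, MALAT1, PSMD5, LUM, NCL, XRN1 and SLC7A11 were no longer called lower, and RMRP, 7SK, H4C11, NDUFS8, NDUFB11, COL7A1, TMSB10 and SNAI1 no longer called higher.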

How the data were processed

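The authors deposited expected counts per gene from RSEM 1.2.3 against hg19/GRCh37, per the submitters' processing notes; the aligner, annotation and strand setting are not given in the sources used here. The deposited values are whole numbers and were used as such. Of the 8 samples in the series, the inputs and anti-HuR precipitates of 3 IMR90 lines were read, and the 2 RNA-seq samples were not used. Classes of shControl enrichment hold the 12860 genes with 50 or more counts in a shControl library. Library sizes were scaled by TMM (edgeR 4.0.16 in R 4.3.3) over the 4 libraries, separately for shControl. Log2 ratios used a prior count of 2. With 1 library per group no test has residual degrees of freedom, so genes were called at 2-fold, and at 1.5-fold among genes with a mean log2 enrichment of 1 or more. Intervals are exact conditional 95% intervals of the odds ratio of 4 counts, checked on simulated data. PCR reads without molecular identifiers are not independent molecules.

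Symbols came from an identifier table and GENCODE 29 (12829 of 13643 genes matched). Where copies share a symbol the most abundant is reported. Base composition, length and 3′ untranslated regions came from GENCODE 29 on GRCh38, and 13244 genes (97.1%) had a value.

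Genes and lists were chosen with earlier results of these data known. A studied gene and a list tied to it are not reported here. Named genes were the studied genes, the 12 largest differences per direction among genes with 50 or more counts in all 4 libraries, the 6 largest among those with 1000 or more, the 2 highest and 2 lowest of each list, all 2-fold members where a list had 5 or fewer, and the most abundant precipitated gene. Alternatives were total counts, DESeq2 1.42.0 size factors, centring on the median, prior counts of 0.5 and 10, other count limits, and removal of GC and length trends.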

Additional observations from a re-analysis of the deposited data

How the results depend on the processing

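The median difference over all genes was 0.13 under total counts, 0.17 under DESeq2 size factors, -0.055 with 50 or more counts in all 4 libraries and -0.082 with GC and length trends removed. Lower genes numbered 1032 under DESeq2 size factors and 2514 with a limit of 10 counts. Higher genes numbered 1996 with that limit, 604 with 50 or more counts in all 4 libraries and 685 with trends removed. Enriched genes lower at 1.5-fold numbered 345 of 2190 under total counts, and enriched genes higher at 1.5-fold 238 with 50 or more counts in all 4 and 913 with a limit of 10. The median of genes enriched 2-fold in shControl was -0.34 under total counts, -0.30 under DESeq2 size factors, -0.51 with 50 or more counts in all 4 and -0.36 with trends removed. Fewer or more genes enter under the count limits; the cause of the other shifts was not tested. Of 133 named genes, 95 were past 2-fold; all 95 kept their direction under each alternative that could include them, and 66 also stayed past 2-fold. List medians that changed sign under 1 or more alternatives were those of cell cycle, matrix, stress response, abundant noncoding, decay machinery, fibroblast marker, ZNF and collagen genes. Leaving out small structural RNAs, replication histones and identifiers absent from GENCODE 29, chosen after seeing the data, gave 1541 lower and 1148 higher. No paired analysis was possible because each group held 1 library, and none could be left out.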
